A study of Homo sapiens with 4 samples.

Results

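The 4 human tropomyosin genes, TPM1, TPM2, TPM3 and TPM4, and their 16 RefSeq transcripts were followed in day 14 cardiomyocyte cultures of 2 origins. They were taken by gene symbol from the deposited gene table, which holds 23615 symbols, and from the transcript table, which holds 43497 RefSeq transcripts. TPM1 had 7 transcripts there, TPM2 had 2, TPM3 had 5 and TPM4 had 2.

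Tropomyosin is a coiled-coil dimer that lies end to end along the actin filament. In striated muscle it moves with the troponin complex and so opens or blocks the myosin sites of actin when calcium changes. Outside the sarcomere, other tropomyosins decide which motors and severing proteins can reach an actin filament. Each gene yields several proteins by alternative promoters and by a choice between paired exons, and the heart is known for the long striated form of TPM1.

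Poly-A RNA was sequenced from 4 libraries of unsorted cells, 2 per group, all from RUES2, a human embryonic stem cell line. Both groups were induced with 100 ng/ml activin A and then 5 ng/ml BMP4 (A100/B5) together with 1 µM of the GSK3 inhibitor CHIR-99021. CPC cardiomyocytes came through A100/B5 cardiac progenitor cells in the standard cardiac protocol, to which the tankyrase inhibitor XAV-939 was added at 1 µM on day 3 in some experiments of the study. ECsXAV cardiomyocytes came through A100/B5 hemogenic endothelium, made from day 2 with 200 ng/ml VEGF, 5 ng/ml bFGF, 10 ng/ml BMP4, monothioglycerol and ascorbic acid, and were given 2 µM XAV-939 from day 5 to block Wnt/β-catenin signaling. The question was how the cardiomyocytes of the 2 origins resemble each other or differ. The 2 cultures of a group, also called its replicates 1 and 2, are biological replicates of 1 cell line, so the p-values speak for these cultures only.

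The values are FPKM as deposited, which are fragments scaled to the length of the transcript and the size of the library, so levels of different genes are set side by side per length. Total depth is unknown. Relative to ECsXAV replicate 1, whole-read steps of weakly read genes gave depths of 50.1% to 86.9% in the other libraries, lowest in ECsXAV replicate 2. All 8 cardiomyocyte markers looked at (TNNT2, MYH6, MYL7, ACTN2, NKX2-5, RYR2, MYBPC3 and TTN) had a mean of at least 1 FPKM. Their summed level was 12273 to 13190 FPKM over the libraries. Of the 8, 2 passed the criterion of an adjusted p under 0.05 from limma and over 2-fold, beside 2.15% of all genes tested. These were MYH6, higher in CPC cultures, and MYBPC3, lower in CPC cultures. With any 1 library left out, or without a filter on low FPKM, 0 of the 8 passed. Of 8 endothelial markers, 5 stayed below 1 FPKM in every library, among them PECAM1 at 0.0425 to 0.233 FPKM. KDR was at 7.06 to 10.8 FPKM, CDH5 at 0.649 to 1.49 FPKM and ESAM at 0.509 to 1.46 FPKM.

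TPM1 lies on chromosome 15 of GRCh37 (the hg19 build of the files) from 63334819 to 63364114, plus strand. Its coding exons include pairs of equal length of which a transcript as a rule takes 1, and they are shown here because the transcripts annotated for TPM1 differ in which of them they take. In each line the sequence runs 5′ to 3′ on the gene's strand, and capitals mark the bases that differ between the members of a pair when they are laid over each other without gaps.
TPM1 upstream exon, chr15:63335905-63336030: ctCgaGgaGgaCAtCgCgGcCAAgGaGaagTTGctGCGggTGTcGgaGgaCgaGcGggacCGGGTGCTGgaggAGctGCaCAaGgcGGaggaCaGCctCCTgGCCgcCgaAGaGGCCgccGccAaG
TPM1 downstream exon, chr15:63336226-63336351: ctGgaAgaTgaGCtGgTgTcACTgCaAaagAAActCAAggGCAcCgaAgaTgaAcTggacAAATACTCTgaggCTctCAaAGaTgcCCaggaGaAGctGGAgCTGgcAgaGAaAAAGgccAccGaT
TPM1 upstream exon, chr15:63353397-63353472: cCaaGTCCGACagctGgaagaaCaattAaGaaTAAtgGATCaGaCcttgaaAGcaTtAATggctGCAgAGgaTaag
TPM1 downstream exon, chr15:63353912-63353987: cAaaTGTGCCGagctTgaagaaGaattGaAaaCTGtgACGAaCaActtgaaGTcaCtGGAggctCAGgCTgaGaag
The first pair, of 126 bases each, had 62 identical bases (49.2%), and the second, of 76 bases each, had 43 (56.6%). TPM1 also has a pair of last coding exons of 80 bases, at 63356263 to 63356342 and 63363289 to 63363368, with 34 identical bases (42.5%). The GENCODE transcript chosen as the MANE Select form of TPM1 takes the downstream exon of both pairs shown and codes for 284 amino acids. Neither exon of the pair of 80 bases is in its coding sequence with those boundaries. The RefSeq partner of the MANE Select form is NM_001018005, the striated muscle form.

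TPM2, on the minus strand of chromosome 9 from 35681989 to 35690053, has such a choice at 2 places, shown here because its transcripts in the table are a muscle form and a form known from smooth muscle and nonmuscle cells. The pair of 76 bases is internal, and the pair of 80 bases is the coding part of the last exon, for which upstream and downstream are again along the gene.
TPM2 upstream exon, chr9:35685061-35685136: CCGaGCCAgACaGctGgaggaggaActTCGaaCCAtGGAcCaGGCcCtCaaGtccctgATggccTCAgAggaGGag
TPM2 downstream exon, chr9:35684729-35684804: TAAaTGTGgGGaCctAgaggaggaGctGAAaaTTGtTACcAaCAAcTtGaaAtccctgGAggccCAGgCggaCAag
TPM2 upstream exon, chr9:35683159-35683238: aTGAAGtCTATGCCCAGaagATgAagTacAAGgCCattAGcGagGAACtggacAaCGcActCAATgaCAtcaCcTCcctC
TPM2 downstream exon, chr9:35682081-35682160: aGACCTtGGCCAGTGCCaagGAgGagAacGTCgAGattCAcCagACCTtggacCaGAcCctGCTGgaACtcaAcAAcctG
The members of the internal pair shared 40 of 76 bases (52.6%) and those of the last pair 35 of 80 (43.8%). The MANE Select form, NM_003289, takes the downstream exon of the internal pair and the upstream exon of the last pair. Between the genes, the downstream internal exons of TPM1 and TPM2 shared 59 of 76 bases (77.6%), more than either shared with its own alternative. TPM3 (chromosome 1, 154127784 to 154167124, minus strand) has an internal pair of the same length, with 40 identical bases, and TPM4 (chromosome 19, 16177831 to 16213812, plus strand) has a pair of last coding exons with 36 of 80. The reference tables do not give the exons of single RefSeq transcripts, so no exon is assigned to the other accessions.

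TPM1 was among the most abundant messages of both cultures. It had 3434 and 3102 FPKM in ECsXAV cultures 1 and 2 and 2517 and 2913 FPKM in CPC cultures 1 and 2. Among all symbols it had rank 2 in both ECsXAV libraries and rank 3 in both CPC libraries. TPM2, the β-tropomyosin of muscle, had 251 and 286 FPKM in ECsXAV cultures 1 and 2 and 288 and 321 FPKM in CPC cultures 1 and 2. TPM4, which mainly makes a short cytoskeletal tropomyosin, had 11.6 and 14.0 FPKM against 10.7 and 9.89 FPKM. TPM3, the source of the slow muscle form and of ubiquitous cytoskeletal forms, had 5.67 and 7.21 FPKM against 5.05 and 5.69 FPKM. The order TPM1, TPM2, TPM4, TPM3 held in each of the 4 libraries. TPM1 was 8.73 to 13.7 times TPM2, TPM2 was 20.4 to 32.5 times TPM4, and TPM4 was 1.74 to 2.11 times TPM3, so every step of the order was wider than the spread of the genes within a group.

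**Figure D1:**
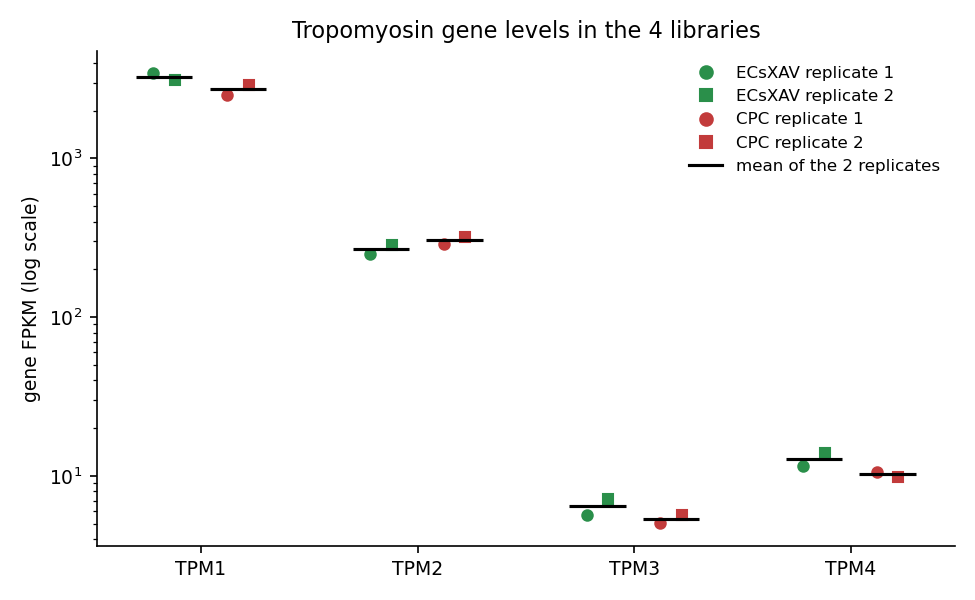
Gene FPKM of the 4 tropomyosin genes on a log axis, with 1 point per library (green ECsXAV, red CPC, circles replicate 1, squares replicate 2) and a bar at the mean of the 2 replicates of a group. The genes sit at 4 separate levels, from TPM1 at 2517 to 3434 FPKM down to TPM3 at 5.05 to 7.21 FPKM, and within each gene the groups lie close together.

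Between the origins the genes differed little. TPM1 was lower in both CPC replicates than in either ECsXAV replicate, at 2715 ± 280 FPKM against 3268 ± 235 FPKM (SD, n = 2 each). Its log2 fold change (CPC minus ECsXAV, on log2(FPKM + 1)) was -0.27 with a 95% confidence interval from -0.77 to 0.23 (limma, adjusted p = 0.527). TPM2 was higher in both CPC replicates, although its lowest CPC value of 288 FPKM stood close to the 286 FPKM of ECsXAV replicate 2. The change of TPM2 was 0.18 with an interval from -0.18 to 0.55 (limma, adjusted p = 0.555). TPM4 was lower in both CPC replicates with a change of -0.29 and an interval from -0.63 to 0.06 (limma, adjusted p = 0.349). TPM3 overlapped between the groups and had a change of -0.22 with an interval from -0.61 to 0.17 (limma, adjusted p = 0.516).

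None of the 4 genes passed that criterion, whose cutoffs are those of the study, which applied them to another test on read counts, and none had an unadjusted p under 0.05 from limma. In the same fit 2.15% of the 12398 genes with a mean of at least 1 FPKM passed (0.71% higher in CPC and 1.44% higher in ECsXAV cardiomyocytes), and 18.2% had an unadjusted p under 0.05. Each of the 4 intervals lay within 2-fold in both directions, and each of them included 0. In 3 of the 4 genes (all but TPM3) the libraries did not overlap between the groups, which also holds for 49.8% of all genes tested. The cultures were unsorted, so fewer cells of a type and less RNA per cell cannot be told apart in any of these levels.

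Within the sum of the 4 genes, TPM1 had a smaller and TPM2 a larger share in both CPC libraries. The 4 genes added up to 3702 and 3409 FPKM in ECsXAV cultures 1 and 2 and to 2821 and 3250 FPKM in CPC cultures 1 and 2. TPM1 made up 92.8% and 91.0% of that sum in the ECsXAV replicates and 89.2% and 89.6% in the CPC replicates. TPM2 made up 6.78% and 8.38% against 10.2% and 9.89%. The share of TPM2 was thus 7.58% ± 1.13 (SD, n = 2) in ECsXAV and 10.1% ± 0.231 (SD, n = 2) in CPC cardiomyocytes, and both CPC values were above both ECsXAV values. An exact permutation test of 2 libraries against 2 gave a two-sided p of 0.333, the smallest it can give. TPM3 and TPM4 together stayed below 1% in every library, with 0.153% to 0.212% for TPM3 and 0.304% to 0.410% for TPM4.

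At the level of transcripts, TPM1 was almost entirely the striated muscle form. NM_001018005 had 3369 and 3034 FPKM in ECsXAV cultures 1 and 2 and 2466 and 2862 FPKM in CPC cultures 1 and 2. It took 98.1% and 97.8% of the TPM1 sum in the ECsXAV replicates and 98.0% and 98.3% in the CPC replicates. These shares overlapped between the groups and differed by 0.178 percentage points (limma on the arcsine square root of the share, adjusted p = 0.878). The level of this transcript followed that of the gene, with a log2 fold change of -0.27 and an interval from -0.73 to 0.20 (limma, adjusted p = 0.585).

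A minor TPM1 transcript had the largest log2 fold change of the 8 tropomyosin transcripts with a mean of at least 1 FPKM. NM_001018007 had 33.3 and 36.0 FPKM in ECsXAV cultures 1 and 2 and 19.1 and 16.0 FPKM in CPC cultures 1 and 2. Both ECsXAV values were well above both CPC values, and the means of 34.6 ± 1.90 and 17.5 ± 2.16 FPKM (SD, n = 2 each) stood in a ratio of 1.97. The log2 fold change was -0.95 (standard error 0.14, interval from -1.33 to -0.56). Cufflinks divides the reads of a gene among its transcripts, and NM_001018005 took 97.8% to 98.3% of TPM1. The SD and standard error cover the replicates only, not the error of that division. With an unadjusted p of 0.00262 and an adjusted p of 0.164 from limma over all 16504 transcripts tested, it did not pass. Of all transcripts tested, 0.0727% passed the criterion and 13.1% had an unadjusted p under 0.05. As a share of TPM1, NM_001018007 took 0.969% and 1.16% in the ECsXAV replicates and 0.757% and 0.550% in the CPC replicates, again without overlap (limma, unadjusted p = 0.0643, adjusted p = 0.680).

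The other TPM1 transcripts differed little in level. NM_000366 had 27.0 and 28.5 FPKM in ECsXAV cultures 1 and 2 and 27.1 and 30.4 FPKM in CPC cultures 1 and 2, a log2 change of 0.05. The whole gene was lower in both CPC replicates but did not pass the criterion. The share of NM_000366 in it was 0.785% and 0.918% against 1.08% and 1.04%, higher in both CPC replicates (limma, unadjusted p = 0.0678, adjusted p = 0.693). In the ECsXAV replicates NM_001018007 was more abundant than NM_000366, and in both CPC replicates it was less abundant. NM_001018008 had 4.06 to 5.06 FPKM over the 4 libraries and a change of -0.04. The remaining TPM1 transcripts, NM_001018004, NM_001018006 and NM_001018020, were below 0.01 FPKM in every library.

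**Figure D2:**
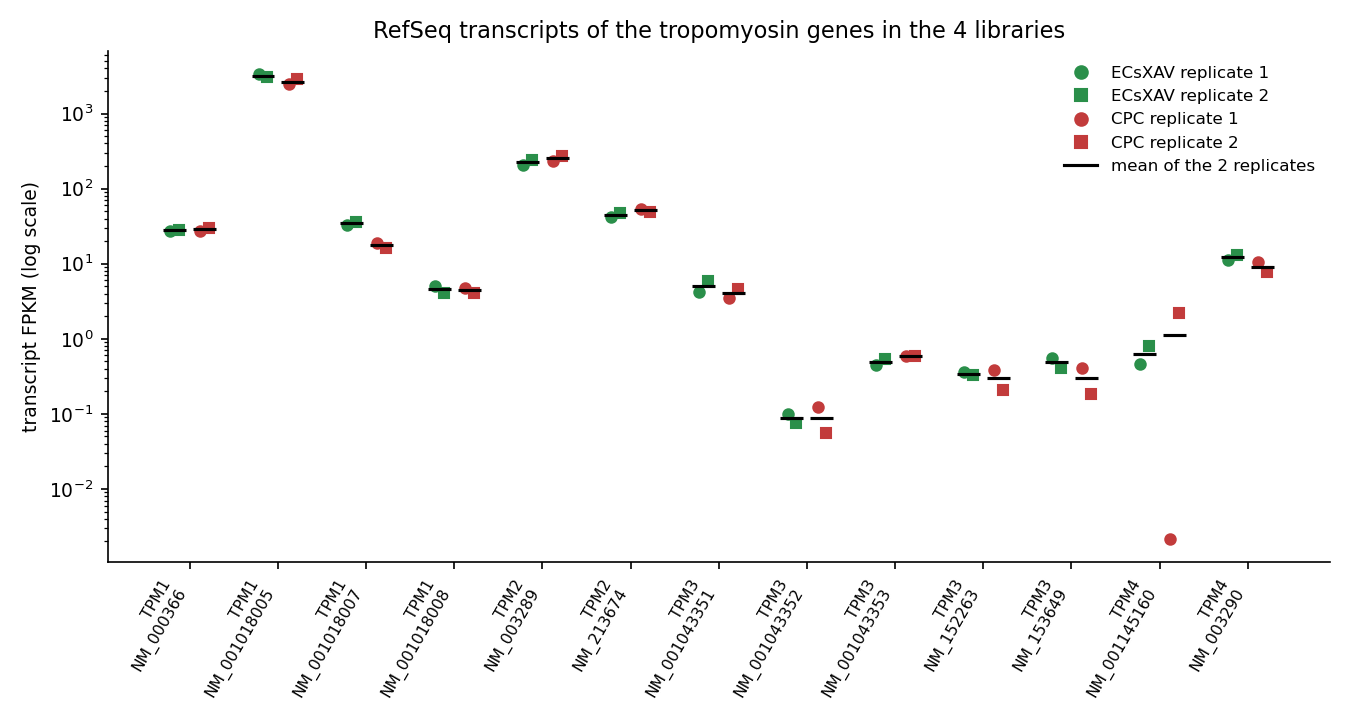
Transcript FPKM on a log axis for the 13 tropomyosin transcripts that reached 0.01 FPKM in a library, with 1 point per library (green ECsXAV, red CPC, circles replicate 1, squares replicate 2) and a bar at the mean of the 2 replicates. Groups overlap or nearly touch for most transcripts, NM_001018007 is apart at 33.3 and 36.0 against 19.1 and 16.0 FPKM, and NM_001145160 spreads from 0.00216 to 2.22 FPKM within the CPC group.

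TPM2 was mainly the muscle form in both cultures. NM_003289 had 209 and 239 FPKM in ECsXAV cultures 1 and 2 and 234 and 272 FPKM in CPC cultures 1 and 2. Its groups overlapped, with a log2 fold change of 0.18 and an interval from -0.22 to 0.57. NM_213674, the form known from smooth muscle and nonmuscle cells, had 41.9 and 46.7 FPKM against 54.0 and 48.9 FPKM, higher in both CPC replicates by 0.21 on the log2 scale (interval from -0.12 to 0.55, limma, adjusted p = 0.551). The share of NM_213674 in TPM2 was 16.7% and 16.4% in the ECsXAV replicates and 18.7% and 15.2% in the CPC replicates. Its means were 16.5% ± 0.239 and 17.0% ± 2.48 (SD, n = 2 each), so the CPC replicates differed from each other by more than the groups did.

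TPM3 was carried by NM_001043351. This transcript had 4.21 and 5.86 FPKM in ECsXAV cultures 1 and 2 and 3.54 and 4.66 FPKM in CPC cultures 1 and 2, which is 70.1% to 81.8% of the gene. NM_152263, the slow muscle form and the MANE Select transcript of 285 amino acids, had 0.361 and 0.328 FPKM against 0.388 and 0.211 FPKM, or 3.70% to 7.68% of the gene. NM_153649, a cytoskeletal form, had 0.560 and 0.411 FPKM against 0.413 and 0.185 FPKM. The muscle form was thus a small part of TPM3 in both groups, and neither transcript separated them. NM_001043353 took 7.86% and 7.44% of TPM3 in the ECsXAV replicates and 11.6% and 10.3% in the CPC replicates, without overlap. This was the 1 tropomyosin share with an unadjusted p under 0.05 (limma, 0.0384, adjusted p = 0.546), at a level of 0.446 to 0.586 FPKM. NM_001043352 stayed at 0.0549 to 0.122 FPKM.

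TPM4 was mostly NM_003290, the short form of 248 amino acids. It had 11.2 and 13.2 FPKM in ECsXAV cultures 1 and 2 and 10.7 and 7.67 FPKM in CPC cultures 1 and 2, a log2 change of -0.38 with an interval from -0.97 to 0.20 (limma, adjusted p = 0.537). NM_001145160, the long form, had 0.466 and 0.796 FPKM in ECsXAV cultures 1 and 2 and 0.00216 and 2.22 FPKM in CPC cultures 1 and 2. Its share of TPM4 was 4.01% and 5.69% against 0.0202% and 22.4%, so the CPC replicates lay on either side of the ECsXAV replicates. Without CPC replicate 2 the difference in that share changed from 6.36 to -4.83 percentage points, and no direction can be read from it.

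**Figure D3:**
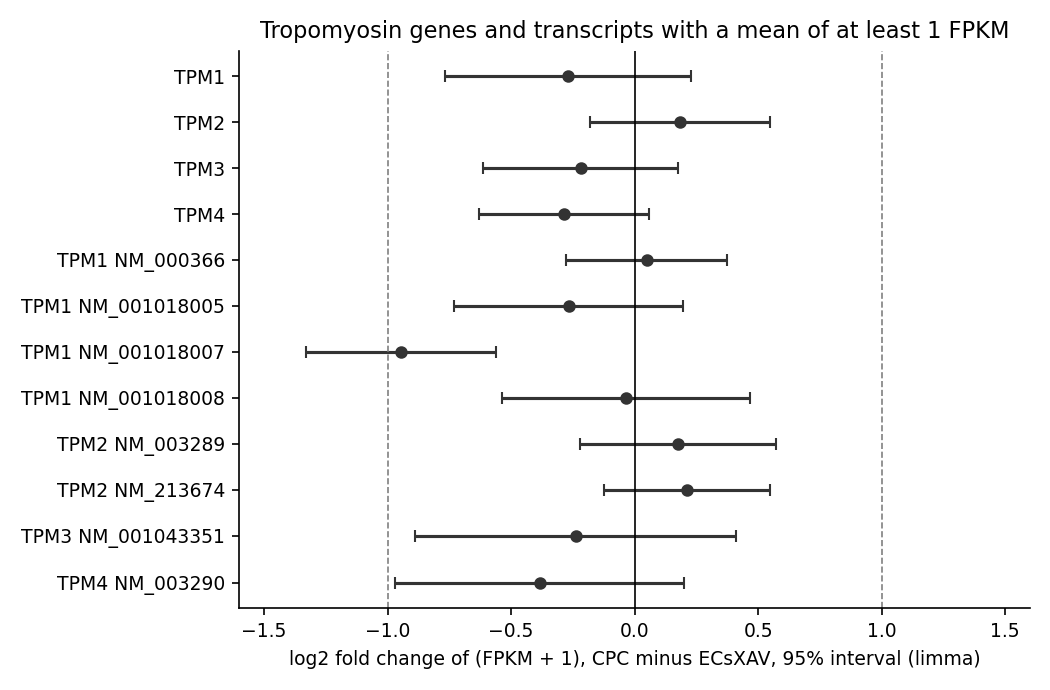
Log2 fold change of (FPKM + 1), CPC minus ECsXAV, for the 4 genes and the 8 transcripts with a mean of at least 1 FPKM, with 95% confidence intervals from limma on 2 libraries against 2, a line at 0 and dashed lines at 2-fold. Every interval but that of NM_001018007 (-1.33 to -0.56) includes 0.

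In all, 8 of the 16 transcripts had a mean of at least 1 FPKM and entered the transcript fit. None passed, 5 had negative and 3 positive fold changes, and in 4 of the 8 the libraries did not overlap between the groups, beside 45.3% of all transcripts tested. All 16 entered the fit of shares, where none was called. There, 0.0% of the 17708 shares tested over all genes was called (0 shares, with 1470, or 8.3%, at an unadjusted p under 0.05 from limma), and 35.4% did not overlap between the groups, against 3 of the 16 here.

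The genes differ in how far their sequence is their own. Of the distinct windows of 50 bases in the MANE Select transcript, none of those of TPM1 and TPM2 occurred outside the gene on the autosomes, X or Y of GRCh37. For TPM3, 7.2% of the windows and 13.4% of those in the coding sequence occurred outside the gene, and for TPM4, 32.4% and 36.4%. Some of these lay in annotated pseudogenes, of which GENCODE lists 9 for TPM3, 3 for TPM4, 1 for TPM2 and 0 for TPM1. No window of one of the 4 genes occurred in another of them. The windows were cut from spliced sequence, so those across an exon junction could hardly have done so. The MANE Select transcript of TPM3 is NM_152263, and NM_001043351, which carried most of TPM3 here, was not scanned. The handling of reads with several alignments was not given for the FPKM, and its part in the low values of TPM3 and TPM4 was not tested. On the other strand of the TPM1 locus GENCODE places the noncoding gene TPM1-AS. The study counted reads by strand for its own test, but strand use was not given for the FPKM. Reads from any stretch the 2 genes share may therefore not have been told apart in the FPKM. How far their exons overlap was not examined.

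Tropomyosin works with actin, troponin and the proteins that cap or decorate the filament. Of 31 such partners, 27 had a mean of at least 1 FPKM, and 3 passed the criterion (11.1%, beside 2.15% of all genes). The median log2 fold change of the 27 was 0.09, against -0.0045 over all genes tested. TNNC2, the fast skeletal troponin C, rose from 2.92 and 3.01 FPKM in ECsXAV cultures 1 and 2 to 22.9 and 25.0 FPKM in CPC cultures 1 and 2, by 2.65 on the log2 scale (limma, adjusted p = 0.00291). CALD1, caldesmon, which shares actin filaments with tropomyosin in smooth muscle and nonmuscle cells, fell from 19.7 and 18.9 to 8.27 and 6.18 FPKM, a change of -1.31 (limma, adjusted p = 0.0320). MYBPC3, the cardiac myosin binding protein that also contacts the thin filament, fell from 401 and 381 to 198 and 181 FPKM, a change of -1.04 (limma, adjusted p = 0.0327). With any 1 library left out, 1 of the partners passed. The tropomyosins that bind beside them had log2 fold changes between -0.29 and 0.18.

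**Figure D4:**
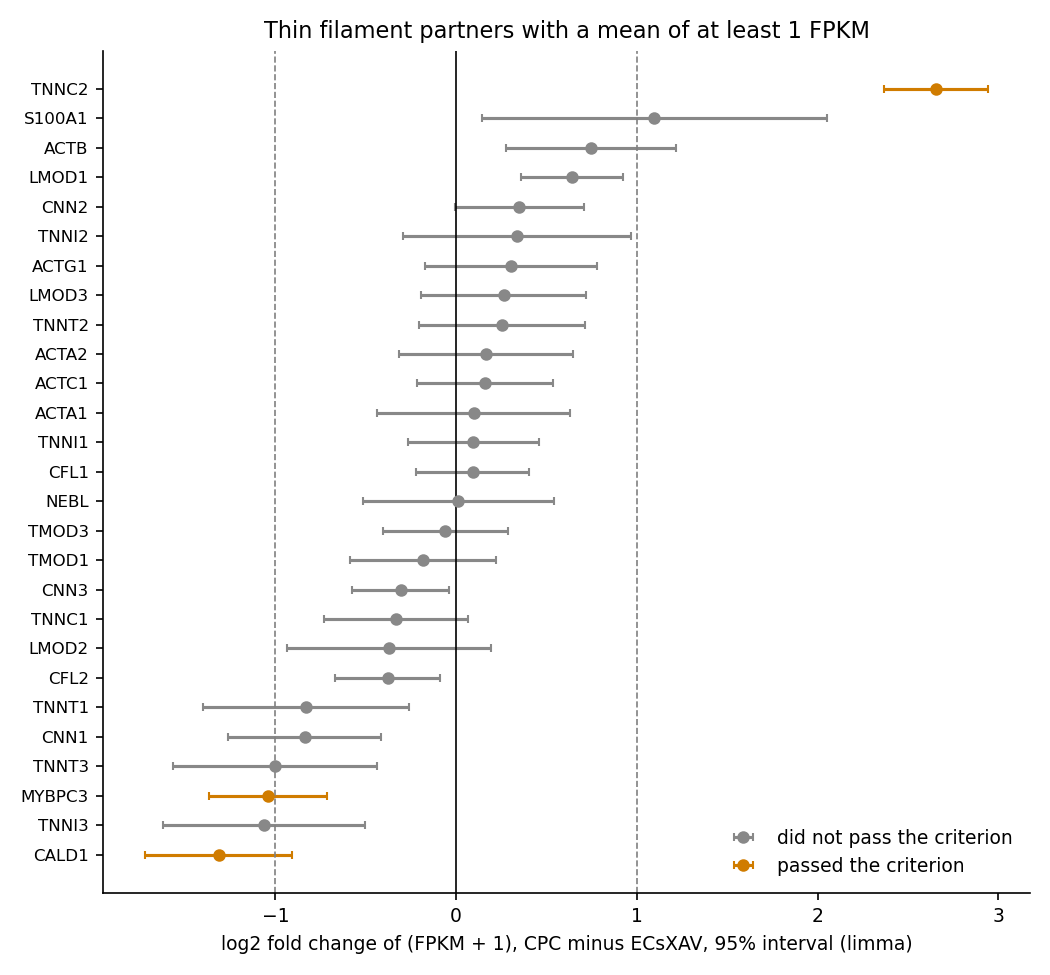
Log2 fold change of (FPKM + 1), CPC minus ECsXAV, of the 27 thin filament partners with a mean of at least 1 FPKM, with 95% confidence intervals from limma, a line at 0 and dashed lines at 2-fold. The 3 partners past the criterion are in orange, TNNC2 at 2.65 on the right and CALD1 and MYBPC3 at -1.31 and -1.04 on the left.

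Exon choice in muscle is set by RNA-binding proteins, and 21 of them were looked at. Of these, 17 were tested and 0 passed the criterion, beside 2.15% of all genes tested, although RBM20 came close to passing. RBM20, a muscle splicing factor best known for titin, had 31.3 and 31.9 FPKM in ECsXAV cultures 1 and 2 and 15.0 and 16.6 FPKM in CPC cultures 1 and 2. Its log2 fold change of -0.96 had an adjusted p of 0.0292 from limma but was just under 2-fold on log2(FPKM + 1). With 0.1 in place of 1 added to the FPKM, 0 of the splicing regulators passed as well. CELF2 and QKI, the next largest changes, had 0.60 and -0.28 (limma, adjusted p = 0.172 and 0.410).

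Other cell types in an unsorted culture can also bring tropomyosin. The counts below stand beside 2.15% of all genes tested that passed the criterion (0.71% higher in CPC and 1.44% higher in ECsXAV cardiomyocytes). Of the 9 genes of the smooth muscle list, 7 had a mean of at least 1 FPKM. The list summed to 292 and 284 FPKM in ECsXAV cultures 1 and 2 and to 149 and 160 FPKM in CPC cultures 1 and 2. Of the 7, 6 had negative fold changes and 1 a positive one (LMOD1, 0.64). Only TAGLN passed (-2.51, limma, adjusted p = 0.0127). MYH11, the defining myosin of that cell type, was at 0.0844 to 0.433 FPKM and higher in the CPC replicates. The fibroblast list of 8 genes summed to 192 and 227 FPKM against 107 and 105 FPKM, with 3 of 6 tested genes past the criterion and lower in CPC cultures (COL1A1, COL3A1 and LUM). Over those 6, 4 fold changes were negative and 2 positive (PDGFRA 0.19 and POSTN 0.15). The fast skeletal list of 11 genes summed to 420 to 565 FPKM over the libraries, and most of that was CKM. CKM had 375 and 440 FPKM in ECsXAV cultures 1 and 2 and 309 and 405 FPKM in CPC cultures 1 and 2. Of the 11, 5 stayed below 1 FPKM in every library, among them MYOD1 at 0 to 0.0353 FPKM. TNNC2 and ACTN3 passed the criterion and were higher in CPC cultures. Of the 5 tested, 3 had positive and 2 negative fold changes, namely CKM (-0.20) and TNNT3, which had 3.76 and 3.89 FPKM in the ECsXAV and 0.988 and 1.92 FPKM in the CPC cultures and did not pass. Liver and endoderm genes summed to 42.9 and 35.0 FPKM against 16.3 and 18.5 FPKM (3 of 4 tested passed, lower in CPC cultures, namely AFP, APOA2 and TTR). The counts of these lists fell to 0 or 1 with some libraries left out. Epithelial and endothelial genes had 0 of 4 and 0 of 2 tested past the criterion, with sums of 132 to 389 and 10.8 to 13.3 FPKM. The epithelial sum turned on KRT8 and KRT18, which were listed at 0 in ECsXAV culture 1 and CPC culture 2, at 99.0 and 60.7 FPKM in ECsXAV culture 2 and at 55.7 and 31.4 FPKM in CPC culture 1. KRT19 had 178 and 223 FPKM against 82.1 and 128 FPKM, and all 4 epithelial genes tested had negative fold changes. The part of these cells in the tropomyosin levels was not tested.

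For each tropomyosin gene, the 3 genes with the most similar course over the 4 libraries were taken as those with the smallest root mean square difference of the centred log2(FPKM + 1). For TPM1 these were MSRA, TTC39C and TRAF3IP2-AS1, at differences of 0.0058 to 0.020. For TPM2 they were LOXL1, RRNAD1 and PTP4A3 (0.0065 to 0.011), and for TPM3 they were NPLOC4, LSS and DES (0.0054 to 0.011). For TPM4 they were RAD51D, ZNF487P and GPT (0.015 to 0.021). Adding 1 to the FPKM flattens the course of weakly read genes, such as TTC39C at 0.770 to 1.37 FPKM, more than that of TPM1. For this reason, and with 4 libraries, the names are a description only.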

How the data were processed

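Poly-A RNA of unsorted day 14 cells was sequenced by the authors on Illumina TruSeq libraries. The deposited FPKM of genes and of RefSeq transcripts were computed by the authors with Cufflinks and UCSC gene annotations on hg19, and Cufflinks divides the reads of a gene among its transcripts. The submitters' processing notes also name TopHat 1.3.3. Read counts were not used here. No column was left without a sample.

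Groups came from the sample labels, doses from the methods of the study. Fold changes and p-values were computed on log2(FPKM + 1) by limma (version 3.58.1, R 4.3.3) with a variance trend on the level and Benjamini-Hochberg adjustment over all genes or transcripts with a mean of at least 1 FPKM. Shares were tested with limma on their arcsine square root, for transcripts of genes with at least 2 transcripts and a mean summed FPKM of at least 1, with a variance trend on the level of the gene. For symbols with several rows the highest value per library was used, and each tropomyosin gene has 1 row. Gene FPKM equalled the sum of transcripts within 0.1% for 100.0% of single-row symbols. Sequences and positions came from GRCh37 and GENCODE release 44 lifted to it. Other steps used Python 3.11.15, pandas 2.3.3, NumPy 2.4.6, SciPy 1.17.1 and matplotlib 3.10.9. The gene and share fits were tested on simulated data with changes larger than those of the tropomyosins. The simulation therefore does not show whether changes of their size would be found.

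The members, lists and tests were chosen with earlier results of these data known. Named are all members, list genes past the criterion (else up to 3 with the largest change) and the nearest genes by course. Alternatives were another pseudocount, filters, normalizations, no trend, other share scales, transcript sums, a replicate block and each library left out.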

Additional observations from a re-analysis of the deposited data

How the results depend on the processing

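The number of tropomyosin genes, transcripts and shares past their thresholds was 0 under all alternatives tried, including each library left out. Of 251 single values of these, 15 changed sign, all with a library left out. Many of the other 236 could not. With every library kept, share differences were fixed, as were fold changes under filters, no trend, replicate block or transcript sums. The fold change of NM_001018007 ran from -1.07 to -0.83 with 1 library left out, and its adjusted p from 0.126 to 0.552 over all alternatives. With 1 library left out, the lone library of a group is assumed to vary like the other group. Then NM_000366 ran from -0.0311 to 0.129 and NM_001018008 from -0.166 to 0.0934 on the log2 scale, and the shares ran from -7.58 to 4.09 points for NM_001043351, -0.431 to 1.03 for NM_001043352, -4.83 to 17.6 for NM_001145160, -17.6 to 4.83 for NM_003290, -2.21 to 1.29 for NM_003289, -1.29 to 2.21 for NM_213674, -1.76 to 2.22 for NM_152263 and -4.54 to 0.407 for NM_153649. The other log2 fold changes kept their sign but ran from -0.375 to -0.164 for TPM1, 0.091 to 0.277 for TPM2, -0.369 to -0.069 for TPM3, -0.411 to -0.163 for TPM4 and -0.599 to -0.171 for NM_003290, and likewise for NM_001018005 (-0.374 to -0.159), NM_001043351 (-0.437 to -0.0391), NM_003289 (0.0671 to 0.284) and NM_213674 (0.135 to 0.289). Of the shares in the 4 genes, TPM1 ran from -3.33 to -1.57 points, TPM2 from 1.67 to 3.27, and TPM3 and TPM4 changed sign (-0.0346 to 0.0238 and -0.0691 to 0.0274).

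Both groups carry the numbers 1 and 2, but no label says that same-numbered cultures were grown together. Their replicate differences had a rank correlation of 0.356 across genes (Pearson's r 0.035), and genes are not independent replicates. With the replicate number as a block, 0 tropomyosin genes, transcripts and shares passed, and the adjusted p of NM_001018007 was 0.318 in limma. With the block, the cardiomyocyte, fast skeletal, fibroblast and liver lists had 1 gene each past the criterion, against 2, 2, 3 and 3 without it, and the thin filament partners had 4 against 3. Over all genes the number past the criterion was 266, and 176 with the block, 20 without a filter, 152 at a mean of at least 5 FPKM and 50 to 118 with 1 library left out. Over all transcripts it was 12, and 0 with the block (2163 at an unadjusted p under 0.05 from limma), 1 without a filter and 29 at a mean of at least 5 FPKM. For shares it was 0, and 33 with untransformed shares and 13 without a trend. Quantile normalization set the fold change of NM_001018005 to 0, since equal ranks get equal values.

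Without a filter on low FPKM, the thin filament, fast skeletal and liver lists had 1 gene each and the cardiomyocyte, smooth muscle and fibroblast lists 0. With quantile normalization the cardiomyocyte and liver lists had 1 each. With 1 library left out, the partners and the fast skeletal list had 1, the cardiomyocyte list 0, the smooth muscle and fibroblast lists 0 to 1 and the liver list 0 to 3. For these lists the cause was not tested. Depth limits the transcripts below 1 FPKM, which were read most coarsely in ECsXAV replicate 2.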
